A study of Mus musculus with 8 samples.

Results

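The Gli transcription factors and their direct regulators Sufu and Spop, 5 genes at the end of the Hedgehog (Hh) pathway, were followed across 4 culture conditions of NIH3T3, an Hh-responsive line of mouse embryonic fibroblasts. They are Gli1, Gli2 and Gli3, the 3 Gli transcription factors, Sufu, which holds Gli proteins in the cytoplasm, and Spop, which brings Gli proteins to a ubiquitin ligase. These 5 genes were taken by name out of 20190 genes with a value in all 8 samples. Their measured levels were not used for this, but earlier results of these data were known. For each gene and sample, the assembled locus that overlapped the annotated gene best on the mm9 mouse build was used, and each gene had exactly 1 such locus in every sample, with 0.994 or more of the joint length shared. Control cells carried the empty pcDNA3.1 vector and received vehicle. Hh-CM cells carried the same empty vector and received Hh-CM, which is medium conditioned by HEK293 cells that secrete the N-terminal part of Sonic Hedgehog. Esrrb and Esrrb+Hh-CM cells carried a pcDNA3.1 vector for Esrrb, an orphan nuclear receptor, and received vehicle or Hh-CM. Hh-CM was diluted to 1 part in 100, treatment lasted 48 h, and there were 2 samples of each condition. The study's methods give the vehicle as equally diluted medium from HEK293 cells without the Sonic Hedgehog transgene. All cells, Control cells included, had been selected with Zeocin, and each line pools cells of independent transfections, so that neither line is a single clone. The study's methods call the samples of a condition biological replicates without saying at which step they were separate, so p-values measure the spread between these samples.

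In cells without ligand, the receptor Ptch1 holds the membrane protein Smo inactive. Binding of ligand frees Smo, Sufu then releases the Gli proteins, and the balance turns from Gli repressors, made mostly from Gli3, to Gli activators, of which Gli2 is the first to act. Gli1 lacks the repressor form, is itself a target of Gli activators, and its mRNA is the usual readout of the pathway in fibroblasts.

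Levels are given as FPKM, fragments per kilobase of transcript relative to the size of the library, so that levels of genes of different length can be set side by side. Differences between conditions are differences of log2(FPKM + 0.1) from a limma fit to all 8 samples and 10289 genes, with p-values adjusted over these genes by the Benjamini-Hochberg method. A gene was called where its adjusted p was below 0.05 and its log2 difference was at least 1 in size. The median difference over all genes tested lay between 0.035 and 0.082 in the 5 comparisons. The files hold no read counts, and the steps between low FPKM values gave a depth relative to Control replicate 1 of 0.743 to 1.54, the lowest in Esrrb+Hh-CM replicate 2 and the highest in Hh-CM replicate 2.

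The mRNA of Esrrb did not set the vector lines apart. Esrrb was listed at 0 FPKM in both Control samples, in both samples labelled Esrrb and in both samples labelled Esrrb+Hh-CM, and at 0.0281 and 0.0203 FPKM in the Hh-CM samples. A level of 3 fragments, taken here as a rough limit for a count of 0, would have been 0.0549 and 0.0481 FPKM in the samples labelled Esrrb. In those labelled Esrrb+Hh-CM it would have been 0.0493 and 0.0630 FPKM. Every comparison between the lines below therefore rests on the labels. The study also examined Esrrb protein, which is not analysed here. The fibroblast identity was checked with 8 markers, of which 7 had a value in all samples, with a summed level of 5151 to 5191 FPKM in Control, 5329 to 5425 in Esrrb, 5637 to 6079 in Hh-CM and 5915 to 5992 in Esrrb+Hh-CM samples. Thy1, a surface glycoprotein, was the 1 marker of this list called with Hh-CM, from means of 87.6 FPKM in Control and 96.3 in Esrrb cells to 397 and 530 FPKM. By adjusted p alone, Pdgfrb, a growth factor receptor, was lower with Hh-CM in both lines, from means of 45.2 to 35.0 FPKM (log2 difference -0.37, adjusted p = 0.00293) and from 47.7 to 28.7 FPKM (-0.73, adjusted p = 0.000164). For Esrrb minus Control, Fn1 (-0.76, adjusted p = 0.00775) and Vim (-0.32, adjusted p = 0.00362) were lower, and 2 collagen genes were higher. Of 4 epithelial markers, Epcam and Krt18 were listed at 0 in every sample, and the sum of the list did not exceed 0.0916 FPKM. For the 3 of 4 leukocyte markers with a value, the sum was 1.09 to 1.91 FPKM in Control, 1.51 to 1.96 in Esrrb, 2.08 to 2.78 in Hh-CM and 1.61 to 2.12 in Esrrb+Hh-CM samples. The 3 endothelial markers summed to 0.111 to 0.143 FPKM in Control and 0.0812 to 0.0881 in Esrrb samples, and to 1.19 to 1.42 in Hh-CM and 1.23 to 1.67 in Esrrb+Hh-CM samples. With Hh-CM most of that sum was Tek, a receptor tyrosine kinase, at 1.06 and 1.24 FPKM in Hh-CM and 1.11 and 1.51 in Esrrb+Hh-CM samples, while Pecam1 did not exceed 0.120 FPKM and Cdh5 did not exceed 0.0743 FPKM in any sample. This list moved with Hh-CM, as did the results on Gli1 and Gli2 below, and its part in them was not tested.

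**Figure D1:**
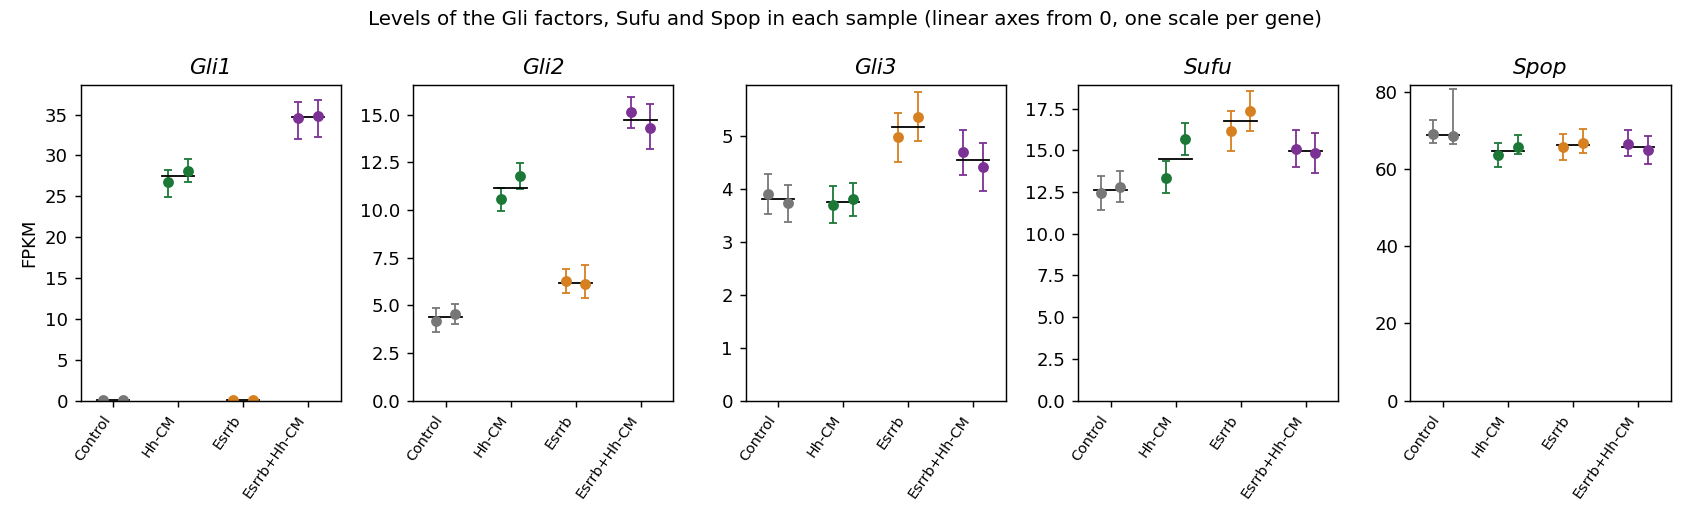
FPKM (linear axes from 0, a separate scale for each gene) of Gli1, Gli2, Gli3, Sufu and Spop in the 2 samples of each condition. Points are samples, bars the 95% confidence limits in the files and black lines the means. Gli1 is near 0 without Hh-CM and between 26.8 and 34.8 with it, Gli2 steps up from Control to Esrrb, Hh-CM and Esrrb+Hh-CM, and Spop lies between 63.6 and 69.2 in all 8 samples.

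Gli1 mRNA went from the edge of detection without ligand to the second highest level among the 5 genes with it. Gli1 lies on chromosome 10 at 126766945 to 126778645 of mm9, on the minus strand. Its level was 0.0217 and 0.0308 FPKM in Control replicates 1 and 2, and 26.8 and 28.1 FPKM in the Hh-CM samples. In the samples labelled Esrrb it was 0.106 and 0.0371 FPKM, and in those labelled Esrrb+Hh-CM it was 34.5 and 34.8 FPKM. All 4 samples with Hh-CM were thus far above all 4 without it, and the Esrrb+Hh-CM samples were above both Hh-CM samples. The 4 low values correspond to an estimated 1.2, 2.0, 4.9 and 2.0 fragments, against 1412 to 2365 fragments in the samples with Hh-CM. The ratio of mean FPKM between Hh-CM and Control was 1047, with a 95% counting interval of 358 to 5077 (exact binomial, from 3 fragments in Control). Between Esrrb+Hh-CM and Esrrb it was 484, with an interval of 235 to 1205 from 7 fragments. These intervals cover counting error only.

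Gli1 was called in each comparison of Hh-CM with vehicle. Its difference of log2(FPKM + 0.1) was 7.77 (SE 0.20, adjusted p = 2.92e-05, limma) for Hh-CM minus Control and 7.69 (SE 0.20, adjusted p = 2.29e-05) for Esrrb+Hh-CM minus Esrrb. For Esrrb+Hh-CM minus Control it was 8.11 (SE 0.20, adjusted p = 1.24e-05). The size of these differences is set by the constant, since Gli1 was near 0 without ligand. With a constant of 1 or of 0.001 in place of 0.1, the Hh-CM minus Control difference was 4.79 or 10.00, and it was called with either. In vehicle, the samples labelled Esrrb did not pass the test against Control (difference 0.41, 95% interval -0.08 to 0.91, adjusted p = 0.220), at a depth of 7 against 3 fragments in all and a ratio of means of 2.73 (95% counting interval 0.623 to 16.4). Without Esrrb replicate 2, this difference was 0.71 with an adjusted p of 0.0332. Under Hh-CM, the mean of Gli1 was 34.6 ± 0.178 FPKM (SD, n = 2) in Esrrb+Hh-CM and 27.4 ± 0.908 FPKM in Hh-CM cells, a ratio of 1.26. The confidence limits in the files did not overlap between these conditions, but the difference of 0.34 did not pass the test over all genes (95% interval -0.16 to 0.83, adjusted p = 0.292). It passed with a constant of 1 (adjusted p = 0.0192) and with only the compared groups in the fit (adjusted p = 0.0413). The main fit uses 1 spread per gene for all 4 conditions. For Gli1 the SD was 24.5% of the mean in Control and 68.0% in Esrrb, against 3.31% in Hh-CM and 0.513% in Esrrb+Hh-CM cells. The interval of the main fit thus also carries the spread of the vehicle samples, where Gli1 was near 0.

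The locus of Arhgap9, a gene for a GTPase-activating protein, shares 55 bases with the span of Gli1. Arhgap9 was listed at 0.186 and 0.331 FPKM in Control samples, at 0.0913 and 0.0399 in those labelled Esrrb, and at 0 in the 4 samples with Hh-CM. Whether reads in the shared stretch moved between these loci was not tested.

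Gli2 mRNA was present without ligand and rose with Hh-CM in both vector lines. The gene is on chromosome 1 at 120730709 to 120950196 of mm9, minus strand. For orientation, the 250 bases before its RefSeq start are shown with the same stretch of Gli3, as the pair of Gli factors that were both expressed without ligand and of which 1 rose with Hh-CM. The sequences are RefSeq windows of the GRCm38.p6 build, 5′ to 3′ on the strand of each gene, at chr1:119053620-119053869 for Gli2 (minus strand) and chr13:15463473-15463722 for Gli3 (plus strand). Capitals mark the letters ACCACCC or, on the other strand, GGGTGGT.
Gli2: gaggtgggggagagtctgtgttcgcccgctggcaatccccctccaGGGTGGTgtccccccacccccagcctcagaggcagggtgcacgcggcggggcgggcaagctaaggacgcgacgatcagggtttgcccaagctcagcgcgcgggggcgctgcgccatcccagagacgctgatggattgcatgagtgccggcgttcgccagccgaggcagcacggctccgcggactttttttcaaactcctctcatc
Gli3: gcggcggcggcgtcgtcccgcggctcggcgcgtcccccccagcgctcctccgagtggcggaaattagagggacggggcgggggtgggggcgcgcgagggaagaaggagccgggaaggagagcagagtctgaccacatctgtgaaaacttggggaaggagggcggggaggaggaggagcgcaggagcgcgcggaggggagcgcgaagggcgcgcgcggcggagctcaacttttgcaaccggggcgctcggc
The 9-letter Gli consensus GACCACCCA, searched on both strands, was in neither window, nor in those of Sufu and Spop, and was in 0.225% of the 32851 windows of this length. Gli1 had no entry in the table. The 7 inner letters, chosen after the sequences were seen and contained in the 9-letter consensus, were in the Gli2 window alone of these 4, starting 205 bases before the start, and in 3.92% of all windows. A match of letters is a description of the sequence and not a binding site.

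Gli2 was at 4.19 and 4.55 FPKM in Control samples and at 10.5 and 11.8 FPKM in Hh-CM samples. It was at 6.27 and 6.10 FPKM in the samples labelled Esrrb and at 15.1 and 14.3 FPKM in those labelled Esrrb+Hh-CM. The 4 conditions did not overlap and followed the order Control, Esrrb, Hh-CM, Esrrb+Hh-CM. The log2 difference was 1.33 (SE 0.079, adjusted p = 0.000326) for Hh-CM minus Control and 1.24 (SE 0.079, adjusted p = 0.000246) for Esrrb+Hh-CM minus Esrrb, which correspond to ratios of mean FPKM of 2.55 and 2.38. For Esrrb+Hh-CM minus Control it was 1.73 (adjusted p = 5.69e-05), a ratio of 3.37. These 3 calls and those of Gli1 held under every alternative in which the gene was tested, 19 for Gli2 and 18 for Gli1. In bulk RNA, more cells that express a gene and more mRNA in each cell cannot be told apart.

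Gli2 was also the member whose difference between the vector lines had an adjusted p below 0.05 at both treatments, higher in the line labelled Esrrb. In vehicle the ratio to Control was 1.42 and the log2 difference 0.49 (SE 0.079, adjusted p = 0.0131). Under Hh-CM the ratio was 1.32 and the difference 0.40 (SE 0.079, adjusted p = 0.0222). Both are below the limit of 1 and were not called. The adjusted p in vehicle rose to 0.0682 without Control replicate 1, to 0.0668 without Esrrb replicate 1 and to 0.0562 without Esrrb replicate 2. Under Hh-CM it rose to 0.106 without Hh-CM replicate 1, to 0.0865 without Esrrb+Hh-CM replicate 1, to 0.0550 without Esrrb+Hh-CM replicate 2, and to 0.0691 with only the compared groups in the fit.

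Gli3, the main source of Gli repressor, did not pass the test with Hh-CM in either line. It lies on chromosome 13 at 15555068 to 15821859 of mm9, plus strand. Its level was 3.91 and 3.72 FPKM in Control and 3.70 and 3.80 FPKM in Hh-CM samples, which overlapped. In the samples labelled Esrrb it was 4.97 and 5.36 FPKM, and in those labelled Esrrb+Hh-CM it was 4.69 and 4.41 FPKM, all 4 above the other samples. The Hh-CM minus Control difference was -0.02 (95% interval -0.22 to 0.17, adjusted p = 0.881), and that for Esrrb+Hh-CM minus Esrrb was -0.18 (-0.37 to 0.02, adjusted p = 0.170). An increase of the size seen for Gli2 lies outside both intervals. In vehicle, Gli3 was higher in the samples labelled Esrrb, with a ratio of 1.35 and a log2 difference of 0.43 (SE 0.079, adjusted p = 0.0214), below the limit of 1. This adjusted p rose to 0.0732 and 0.0951 without Control replicate 1 or 2, to 0.0559 and 0.0928 without Esrrb replicate 1 or 2, and to 0.0667 with only the compared groups in the fit. Under Hh-CM the difference between the lines was 0.27 (95% interval 0.08 to 0.47) and missed the threshold (adjusted p = 0.0635), which it passed without the variance trend (adjusted p = 0.0378).

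**Figure D2:**
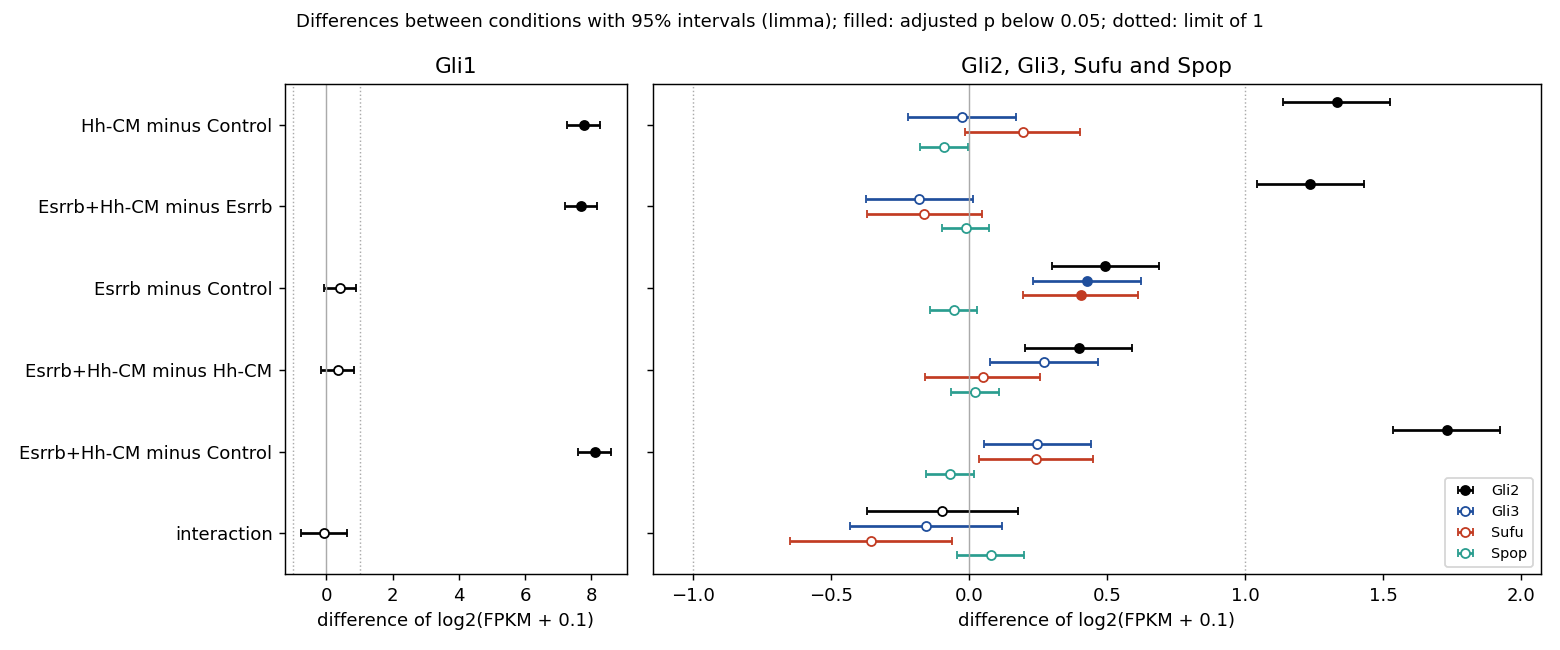
Differences of log2(FPKM + 0.1) in the 5 comparisons and the interaction, with 95% intervals from limma. Gli1 has its own axis, filled points have an adjusted p below 0.05 and dotted lines mark a difference of 1. Gli1 and Gli2 pass the dotted line in the 3 comparisons of Hh-CM with vehicle, and Gli2, Gli3 and Sufu are filled but within it for Esrrb minus Control.

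Sufu, the cytoplasmic inhibitor of Gli proteins, was expressed above Gli2 and Gli3 without ligand and differed between conditions by less than 1 on the log2 scale. The gene is on chromosome 19 at 46471386 to 46563294 of mm9, plus strand. It was at 12.4 and 12.8 FPKM in Control, 16.1 and 17.4 FPKM in the samples labelled Esrrb, 13.4 and 15.7 FPKM in Hh-CM, and 15.1 and 14.8 FPKM in those labelled Esrrb+Hh-CM. The Control samples were the lowest and the samples labelled Esrrb the highest, while the Hh-CM samples spread around those of Esrrb+Hh-CM. In vehicle, Sufu was higher in the samples labelled Esrrb with a ratio of 1.33 and a log2 difference of 0.40 (SE 0.084, adjusted p = 0.0290). This adjusted p rose to 0.122 and 0.0952 without Control replicate 1 or 2 and to 0.0752 and 0.120 without Esrrb replicate 1 or 2. For Hh-CM minus Control the difference was 0.19 (95% interval -0.01 to 0.40, adjusted p = 0.181), and for Esrrb+Hh-CM minus Esrrb it was -0.16 (-0.37 to 0.05, adjusted p = 0.236).

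Spop, the adaptor that binds Gli2 and Gli3 proteins for degradation through Cul3, was the highest of the 5 genes and the least variable. It lies on chromosome 11 at 95275394 to 95354720 of mm9, plus strand. It was at 69.2 and 68.5 FPKM in Control, 65.6 and 66.8 FPKM in the samples labelled Esrrb, 63.6 and 65.7 FPKM in Hh-CM, and 66.4 and 64.8 FPKM in those labelled Esrrb+Hh-CM. The Control samples were above the other 6 samples. No comparison passed the test, with differences from -0.09 (95% interval -0.18 to -0.01, adjusted p = 0.137) for Hh-CM minus Control to 0.02 (-0.06 to 0.11, adjusted p = 0.695) for Esrrb+Hh-CM minus Hh-CM. With FPKM rescaled by the median ratio over genes, the Hh-CM minus Control difference of Spop was -0.12 with an adjusted p of 0.0442, and that for Esrrb+Hh-CM minus Control was -0.15 with an adjusted p of 0.0144.

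In counts, 2 of the 5 genes were called for Hh-CM minus Control, Esrrb+Hh-CM minus Control and Esrrb+Hh-CM minus Esrrb, in each case Gli1 and Gli2 and in each case higher. Among all genes tested, 1.96%, 4.61% and 3.47% were called higher in these comparisons. None of the 5 was called for Esrrb minus Control, where 1.48% of all genes were, or for Esrrb+Hh-CM minus Hh-CM, where 1.99% were. By adjusted p alone, 3 of the 5 were higher for Esrrb minus Control (Gli2, Gli3 and Sufu) against 10.2% of all genes, and 1 for Esrrb+Hh-CM minus Hh-CM (Gli2) against 12.5%. The samples of Hh-CM and Control did not overlap for 4 of the 5 genes, all but Gli3, but this held for 62.6% of all genes tested. Comparisons with Control share the Control samples, so their counts are not independent.

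Whether the response to Hh-CM differed between the vector lines was tested with the interaction, the response in the line labelled Esrrb minus that in the empty vector line. None of the 5 genes passed, while 1.33% of all genes did, and 1854 genes had an unadjusted p below 0.05. The interaction was -0.08 for Gli1 (95% interval -0.78 to 0.62, adjusted p = 0.912) and -0.10 for Gli2 (-0.37 to 0.18, adjusted p = 0.692). The sign for Gli1 turned with a constant of 1 (0.26) and without Esrrb replicate 1 (0.21). It was -0.16 for Gli3 (-0.43 to 0.12, adjusted p = 0.529) and 0.08 for Spop (-0.04 to 0.20, adjusted p = 0.471). Sufu had the interaction farthest from 0, at -0.36 (-0.65 to -0.06), with an unadjusted p of 0.0252 in the limma fit and an adjusted p of 0.205.

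Set side by side per length, the Gli mRNAs changed both in sum and in makeup with Hh-CM. The sum of Gli1, Gli2 and Gli3 was 8.21 ± 0.134 FPKM (SD, n = 2) in Control, 11.4 ± 0.112 in Esrrb, and with Hh-CM it was 42.3 ± 1.84 in the empty vector line and 53.9 ± 0.583 in the line labelled Esrrb. Gli1 made up 0.319% of that sum in Control and 0.629% in Esrrb cells, and 64.8% in Hh-CM and 64.3% in Esrrb+Hh-CM cells. Gli3 made up 46.5% and 45.2% without Hh-CM in the 2 lines, and 8.86% and 8.44% with it. The ratio of Gli2 to Gli3 was 1.15 ± 0.106 in Control and 1.20 ± 0.0873 in Esrrb cells, against 2.97 ± 0.176 in Hh-CM and 3.23 ± 0.0171 in Esrrb+Hh-CM cells. The ratio of summed Gli to Sufu was 0.650 and 0.683 without Hh-CM, in Control and Esrrb cells, and 2.93 and 3.60 with it. In every vehicle sample the order of levels was Spop, Sufu, Gli2, Gli3 and Gli1. In both Hh-CM samples Gli1 stood second, ahead of Sufu, Gli2 and Gli3, and in the Esrrb+Hh-CM samples Gli2 and Sufu overlapped behind it.

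**Figure D3:**
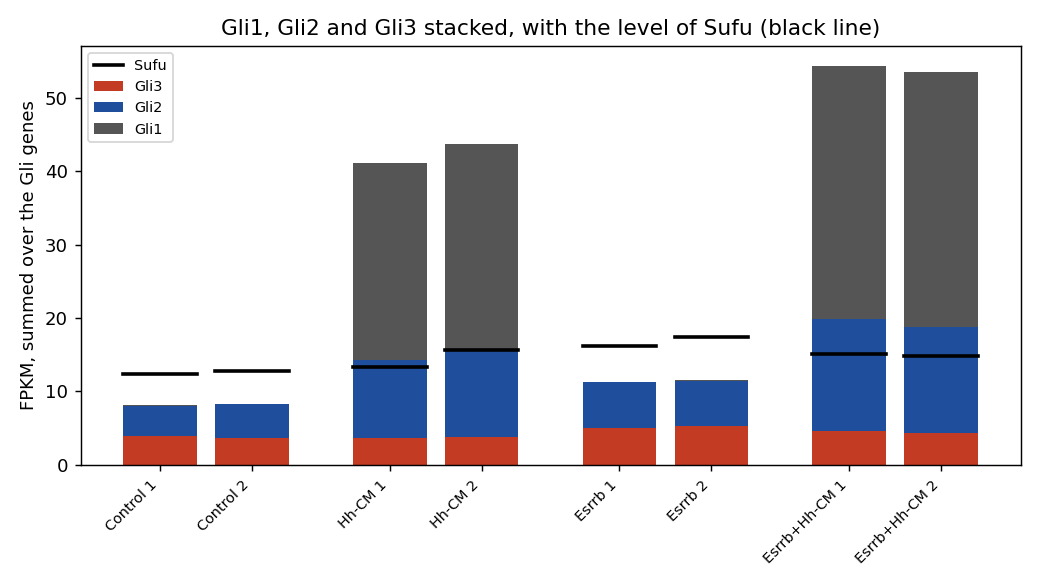
FPKM of Gli3, Gli2 and Gli1 stacked for each of the 8 samples (linear axis from 0), with the level of Sufu in the same sample as a black line. Without Hh-CM the stack is 8.11 to 11.5 FPKM and below Sufu, and with Hh-CM it is 41.0 to 54.3 FPKM and above it, most of it Gli1.

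The rest of the pathway was read from lists of genes by role, of which the first holds ligands, receptors and co-receptors. Of 10 such genes 5 were tested, and Shh and Hhip were listed at 0 in every sample. Ptch1, the receptor and itself a Gli target, was at 2.44 and 2.98 FPKM in Control, 3.08 and 2.76 in the samples labelled Esrrb, 37.0 in both Hh-CM samples, and 43.9 and 47.7 in those labelled Esrrb+Hh-CM. It was called for Hh-CM minus Control (3.73, adjusted p = 3.45e-05) and for Esrrb+Hh-CM minus Esrrb (3.93, adjusted p = 2.39e-05). Gas1, a co-receptor, fell with Hh-CM from 277 ± 5.82 FPKM (SD, n = 2) to 128 ± 0.319 in the empty vector line and from 276 ± 0.527 to 91.6 ± 6.40 in the line labelled Esrrb. Of all genes 1.33% passed the interaction test, and of those tested in these lists Gas1 alone did (-0.48, adjusted p = 0.0479). It passed in 9 of 18 alternatives, and its adjusted p was 0.115 to 0.135 without either sample of Control, Esrrb or Hh-CM, 0.0859 with the replicate number as a block, 0.0608 without an FPKM limit and 0.0887 without the variance trend. Boc, another co-receptor, was called for Esrrb+Hh-CM minus Control (1.05, adjusted p = 0.0253), but not without Control replicate 1 or 2 (adjusted p of 0.0858 and 0.0947) or Esrrb+Hh-CM replicate 2 (difference 0.65). This call was also lost with a constant of 1 (0.85), with rescaled FPKM (0.97) and with only the compared groups in the fit (adjusted p = 0.0788). Smo was at means of 51.7, 60.2, 54.2 and 59.2 FPKM in Control, Esrrb, Hh-CM and Esrrb+Hh-CM and was called in no comparison. By adjusted p, Smo alone of the 5 passed for Esrrb minus Control, higher (0.22, adjusted p = 0.0250), against 10.2% of all genes. For Esrrb+Hh-CM minus Control 4 were higher, Smo among them (0.19, adjusted p = 0.0180), and 1 lower, against 23% and 12%. Cdon, another co-receptor, was higher with Hh-CM in the empty vector line (0.26, adjusted p = 0.0103) and the line labelled Esrrb (0.20, adjusted p = 0.0205). Of all genes, 10.5% and 13.9% were higher there. The median log2 difference of the 5 genes was 0.26 for Hh-CM minus Control and 0.20 for Esrrb+Hh-CM minus Esrrb, against 0.035 and 0.038 over all genes.

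The genes that act on Gli proteins, such as kinases, ubiquitin ligase subunits and cilium proteins, stayed within the limit of 1 in every comparison. Of 31 such genes 28 were tested and 0 were called. Of all genes, 1.96%, 4.61% and 3.47% were called higher for Hh-CM minus Control, Esrrb+Hh-CM minus Control and Esrrb+Hh-CM minus Esrrb. For Esrrb minus Control 1.48% were called, and for Esrrb+Hh-CM minus Hh-CM 1.99%. At such shares, a count of 0 among 28 genes does not set this list apart. By the adjusted p of limma alone, 6 were higher for Esrrb+Hh-CM minus Control (Csnk1d, Csnk1e, Dzip1, Kif7, Numb and Prkaca), 1 was higher for Esrrb+Hh-CM minus Hh-CM (Numb) and 3 were lower for Esrrb+Hh-CM minus Esrrb (Csnk1a1, Fbxw11 and Prkacb). In the same directions, 23%, 12.5% and 9.52% of all genes passed at the adjusted p alone. Hh-CM minus Control, Esrrb minus Control and the interaction gave 0 in this list. Of all genes, 10.5% were higher and 7.54% lower for Hh-CM minus Control, and 10.2% and 6.17% for Esrrb minus Control. The interaction was passed by 1.33% of all genes. Kif7, the kinesin that scaffolds Gli and Sufu at the cilium tip, had means of 2.87 and 3.22 FPKM in Control and Esrrb cells and of 3.68 and 3.74 FPKM in their counterparts with Hh-CM. Cul3, the ligase scaffold that Spop joins, had means of 73.7, 79.8, 78.6 and 86.4 FPKM in that order, and Spopl, the paralog of Spop, of 8.59, 7.93, 7.70 and 8.21 FPKM. The list median was 0.019 for Hh-CM minus Control and 0.060 for Esrrb+Hh-CM minus Esrrb.

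The nearest relatives of the Gli factors by their zinc fingers are the Glis and Zic factors. Of 8 such genes only Glis1, Glis2 and Glis3 passed the FPKM limit, and 0 were called. These are too few genes to set against the shares of all genes called given above. By adjusted p alone, Glis3 was lower with Hh-CM in both lines, at 5.95 ± 0.0687 FPKM (SD, n = 2) in Control and 3.95 ± 0.0695 in Hh-CM cells (log2 difference -0.58, adjusted p = 0.00243), and at 9.24 ± 0.340 and 4.91 ± 0.0356 FPKM without and with Hh-CM in the line labelled Esrrb (-0.90, adjusted p = 0.000313). It was higher in the samples labelled Esrrb than in Control (0.63, adjusted p = 0.00279). Glis2, at means of 17.3, 16.6, 19.8 and 14.3 FPKM in Control, Esrrb, Hh-CM and Esrrb+Hh-CM, was lower for Esrrb+Hh-CM minus Hh-CM (-0.46, adjusted p = 0.00652) and for Esrrb+Hh-CM minus Control (-0.27, adjusted p = 0.0188). The latter passed in 16 of 19 alternatives, not without Control replicate 1 or Esrrb+Hh-CM replicate 2 or with only the compared groups.

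Of 19 textbook targets of Gli factors 14 were tested, Ptch1 among them. With Hh-CM in the empty vector line 2 were called, both higher, namely Foxm1 and Ptch1. In the line labelled Esrrb, 3 were called, all higher, with Snai1 added. Of all genes, 1.96% and 3.47% were called higher in these comparisons. Foxm1, a cell cycle transcription factor, had means of 4.84 and 6.24 FPKM without Hh-CM in the empty vector line and the line labelled Esrrb, and of 10.3 and 19.1 FPKM with it. It had log2 differences of 1.07 (adjusted p = 0.000324) and 1.60 (adjusted p = 5.33e-05) for the responses in the 2 lines. The first fell below the limit with a constant of 1 (0.95). Snai1, an inducer of mesenchymal character, had means of 24.9, 26.3, 49.5 and 60.2 FPKM in this order, and its differences of 0.98 (adjusted p = 0.00277) and 1.19 (adjusted p = 0.000879) lie on either side of the limit. The first of these was 1.01 without Control replicate 1 and 1.08 without Hh-CM replicate 1. Mycn was called for Esrrb minus Control (1.82, adjusted p = 0.00917), at means of 0.922 and 0.190 FPKM, but not with a constant of 1 (0.69), while 1.48% of all genes were called there. Esrrb+Hh-CM minus Control gave 5 calls, with Ccne1 (1.23, adjusted p = 0.000221) and Mycn beside Foxm1, Ptch1 and Snai1, and Esrrb+Hh-CM minus Hh-CM gave 1, Mycn, against 4.61% of all genes called higher and 1.99% called. The latter call (1.60, adjusted p = 0.0120) was lost without Hh-CM replicate 1 or 2 (adjusted p of 0.0687 and 0.0521) and without Esrrb+Hh-CM replicate 1 (0.0565), and with a constant of 1 (difference 0.78).

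By adjusted p alone, 5 of these 14 targets were higher and 1 was lower for Hh-CM minus Control, against 10.5% and 7.54% of all genes. The higher ones were Ptch1, Foxm1, Snai1, Bcl2 (0.58, adjusted p = 0.0281) and Ccnd1 (0.22, adjusted p = 0.0212). Bcl2 and Ccnd1 passed here in most but not all alternatives. For Esrrb minus Control 3 were higher and 2 lower, against 10.2% and 6.17%. The counts were 7 and 3 for Esrrb+Hh-CM minus Control (23% and 12% of all genes), 4 and 2 for Esrrb+Hh-CM minus Hh-CM (12.5% and 6.55%), and 6 and 0 for Esrrb+Hh-CM minus Esrrb (13.9% and 9.52%). Ccnd2, a cyclin, was the 1 target lower for Hh-CM minus Control, at means of 49.1 FPKM in Control and 40.4 in Hh-CM cells (-0.28, adjusted p = 0.0379, below 0.05 in 11 of 19 alternatives). For Esrrb minus Control, Bcl2, an inhibitor of apoptosis, was lower (-0.62, adjusted p = 0.0261, below 0.05 in 13 of 19), as was Ccnd1, another cyclin (-0.31, adjusted p = 0.00902, below 0.05 in 17 of 19). The alternatives that lost these were, for Bcl2, leaving out any 1 sample of Control, Esrrb or Hh-CM, for Ccnd1, leaving out Control replicate 1 or Esrrb replicate 2, and for Ccnd2, the same as for Bcl2 with the replicate block and the fit without variance trend. With Hh-CM in the line labelled Esrrb, Bcl2 was higher (0.69, adjusted p = 0.0118), though not with only the compared groups in the fit (adjusted p = 0.0664). Ccnd1 did not pass there (0.04, adjusted p = 0.526). Hhip was listed at 0 in every sample. The list median was 0.22 for Hh-CM minus Control and 0.41 for Esrrb+Hh-CM minus Esrrb.

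**Figure D4:**
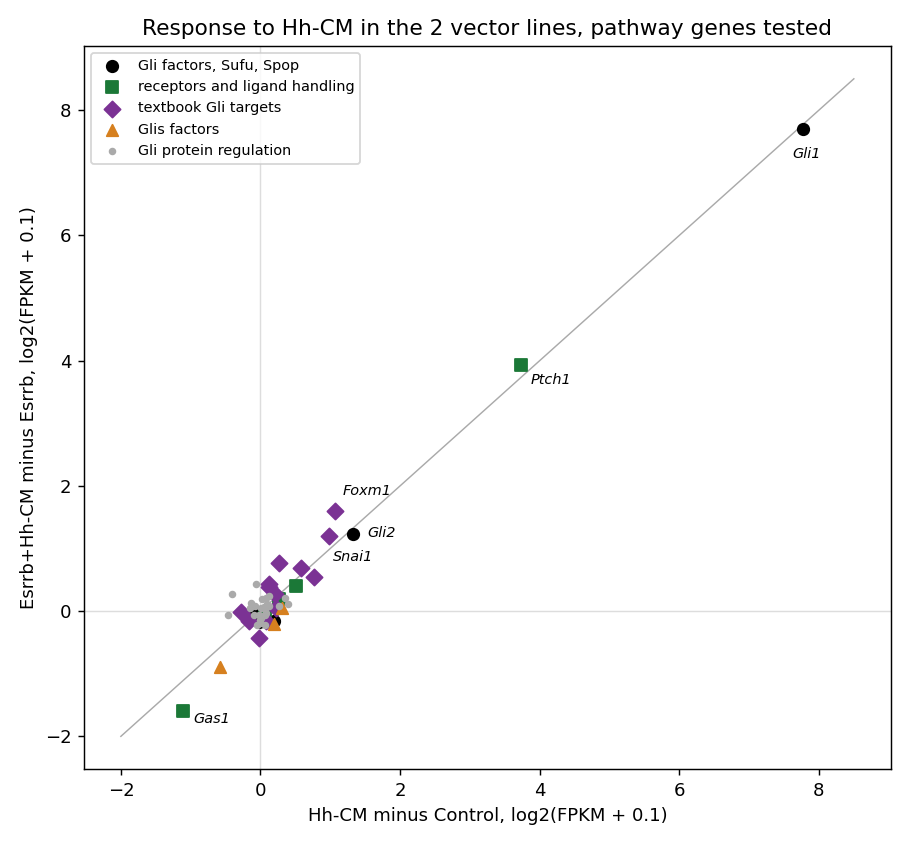
Difference of log2(FPKM + 0.1) with Hh-CM in the line labelled Esrrb (vertical axis) against that in the empty vector line (horizontal axis) for the pathway genes tested, 1 point per gene, with the line of equal values. Gli1 is at the upper end with 7.77 and 7.69, followed by Ptch1, Gli2 lies at 1.33 and 1.24, and Gas1 is at the lower end, while most regulators of Gli proteins lie near 0.

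The tested genes whose pattern was most like that of Gli1, by Pearson's r of log2(FPKM + 0.1) over the 8 samples, were Ptch1 (0.999), Mr1 (0.998), Fbxl2 (0.998), Bai2 (0.998) and Nuak2 (0.996). These 8 points form 2 separate levels, so r reads mainly the step with Hh-CM. Mr1, an antigen-presenting molecule, went from a mean of 34.4 FPKM in Control to 86.4 FPKM in Hh-CM cells, and Nuak2, a kinase, from 2.18 to 7.68 FPKM. Fbxl2, an F-box protein, was listed at 0 in the 4 samples without Hh-CM and was at 3.81 to 4.34 FPKM in those with it. The r of Gli2 with Gli1 was 0.956, and the genes most like Gli2 were others, namely Tspan11 (0.998), Rhbdf2 (0.998), Erc1 (0.997), Gfpt2 (0.996) and Zmiz1 (0.995). Tspan11, a tetraspanin, had means of 28.4 FPKM in Control, 39.0 in Esrrb, 68.9 in Hh-CM and 88.7 in Esrrb+Hh-CM cells. Rhbdf2, an inactive rhomboid protein, had means of 3.57, 6.47, 15.4 and 21.7 FPKM in that order. Both were chosen by r with Gli2, so that sharing its order of conditions follows from the choice.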

How the data were processed

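RNA-Seq libraries of 8 samples, 2 in each of 4 conditions, were grouped by the sample labels. The authors prepared stranded mRNA libraries, cleaned the reads with FASTX-Toolkit, used Bowtie2 and TopHat2 for mapping to mm9, and ran Cufflinks on single samples with a reference as guide. The deposited values are FPKM, which the study's methods call RPKM. No counts were used, and whether strand entered the estimates is not given in the sources used here.

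Loci were given to the GENCODE gene of the same build with the largest overlap, at least 0.5 of the joint length, and loci of 1 gene were summed. For 7 genes an estimate had failed, and they were left out. Tests covered the 10289 genes that reached 1 FPKM in 2 or more samples and were run on log2(FPKM + 0.1) of the deposited FPKM with limma 3.58.1 in R 4.3.3, with a single fit of the 4 condition means to all 8 samples, a variance trend and Benjamini-Hochberg adjustment. The fit was tested on simulated data. The genes, lists and tests were chosen with earlier results of these data known. Genes with similar patterns are the 5 with the highest r. Other genes named are the called genes of each list and up to 4 more of known role, and 1 gene is not reported here. Tables used Python 3.11.15, numpy 2.4.6, pandas 2.3.3, scipy 1.17.1 and matplotlib 3.10.9.

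Relative depth was the most frequent ratio of low FPKM values between Control replicate 1 and each sample at the same loci. The worth of 1 fragment was estimated from whole-fragment steps of low FPKM in genes with 1 transcript. In Control replicate 1, the FPKM of 1 fragment multiplied by the transcript length in kilobases was 0.067. For Gli2, Gli3, Sufu and Spop, the upper and lower confidence limits deposited with each FPKM lay on average 3.80% to 15.2% from the value. The alternatives were other constants, FPKM limits, overlap and rescaling, the replicate number as a block, only the compared groups, no variance trend, only the best locus of a gene, leaving out samples 1 at a time and, added after seeing the data, failed estimates kept at 0. Same-numbered samples did not deviate together, with correlations of -0.0702 to 0.0809.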

Additional observations from a re-analysis of the deposited data

Results flagged for a closer look

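Of all genes tested, 1.33% passed the interaction test, Gas1 among them. The response of Gas1 to Hh-CM differed between the vector lines by this test, with a log2 difference of -0.48 (SE 0.072, adjusted p = 0.0479, limma). The fall with Hh-CM was larger in the line labelled Esrrb. Both samples with Hh-CM in that line, at 96.1 and 87.0 FPKM, were below both in the empty vector line, at 128 FPKM each, while the vehicle samples lay between 273 and 281 FPKM. The adjusted p ranged from 0.0187 to 0.135 with 1 sample left out.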

How the results depend on the processing

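With 2 samples per condition, no read counts and Gli1 near 0 without ligand, small differences and the size of the Gli1 change are poorly fixed. Calls of Gli1 and Gli2 did not change, except that a limit of 1 FPKM in all samples leaves Gli1 untested, so that 1 of the 5 genes in place of 2 was called in each of the 3 comparisons of Hh-CM with vehicle. Over all genes, counts moved by more than 1.5 times as follows. For Hh-CM minus Control (284 genes), a constant of 1 gave 179 and the stricter FPKM limit 186. For Esrrb minus Control (152), a constant of 1 gave 88, no limit 243 and the stricter limit 70. For Esrrb+Hh-CM minus Hh-CM (205) these gave 126, 315 and 110. The interaction (137) gave 81 without the variance trend and 59 to 180 with 1 sample left out, the lowest without Esrrb replicate 2; it gave 77 without Control replicate 1, 79 without Esrrb replicate 1 or Hh-CM replicate 2, and 90 without Esrrb+Hh-CM replicate 1. With a sample left out, the lone sample of that condition is assumed to vary like the others. The cause of these shifts was not tested beyond the number of genes or samples that each setting removes.

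Same-numbered samples did not deviate together over the genes tested, and neither labels nor methods say whether the replicate numbers pair the samples. With the replicate number as a block, 272, 145, 633, 193 and 482 genes were called for Hh-CM minus Control, Esrrb minus Control, Esrrb+Hh-CM minus Control, Esrrb+Hh-CM minus Hh-CM and Esrrb+Hh-CM minus Esrrb, and 52 for the interaction. No call among the 5 genes changed with this block. Of the other genes named with values, the call of Gas1 for the interaction was lost (adjusted p = 0.0859). Ccnd2 for Hh-CM minus Control, not called, had an adjusted p of 0.0691. For Smo and Cdon, the values with this block are not given here.

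Among the 5 genes, signs turned only where a difference was not past the test. With 1 sample left out, the Gli3 difference for Hh-CM minus Control ranged from -0.058 to 0.0094, the latter without Control replicate 1. For Esrrb+Hh-CM minus Hh-CM, Sufu ranged from -0.065 to 0.16 and Spop from -0.0016 to 0.046, both lowest without Hh-CM replicate 1, and Spop was -0.026 with rescaled FPKM. For Esrrb+Hh-CM minus Esrrb, Spop ranged from -0.030 to 0.0050, and was 0.0011 without Esrrb replicate 2. The Gli1 interaction ranged from -0.37 to 0.21 with 1 sample left out. It was 0.26 with a constant of 1 and -0.91 with a constant of 0.001.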
